A study of Homo sapiens with 6 samples.

Results

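The Krüppel-like factors (KLF), early growth response factors (EGR) and immediate early response genes (IER) described here are 10 genes. Several of them are known for rapid transcription after a stimulus. The 10 are EGR1, IER2, IER3, IER5, KLF2, KLF4, KLF6, KLF9, KLF10 and KLF13, taken by name with earlier results of these data known. Of the 10 genes, 9 had a row among the 11048 gene symbols of the data, and IER3 was not analysed here because it had none. MM1.S is an established human multiple myeloma cell line, so all values come from 1 line. Its polyadenylated RNA was sequenced after 6 h with the DMSO vehicle, with 3 µM CCF642 or with 3 µM CCF642-34, with 2 libraries per group. CCF642 is an inhibitor of protein disulfide isomerases, the enzymes that form and rearrange disulfide bonds in the endoplasmic reticulum, and CCF642-34 was derived from it. The comparisons ask how each compound changed these genes against DMSO, and where the compounds differed at the same dose and time.

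Immediate early genes are transcribed from factors that are already in the cell, without new protein synthesis. Serum response factor (SRF), bound with ETS-type partners such as ELK1 that the ERK kinases phosphorylate, drives EGR1 from CArG boxes, while the ERK5 kinase and MEF2 factors drive KLF2. EGR and KLF proteins are themselves transcription factors with zinc fingers that bind GC-rich DNA, and NAB1 and NAB2 are co-repressors that bind EGR1. KLF2 is known in B and plasma cells for its control of homing and quiescence, and KLF4, KLF6 and KLF9 are also known as regulators of growth arrest and stress.

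The promoters of 4 genes are shown because the motifs of these textbook routes could be looked for in them. They are those of EGR1 and KLF2, which represent the SRF and MEF2 routes, and of KLF6 and IER5, whose levels after CCF642 were high but which differed in how they responded to CCF642-34. Each line gives the 250 bases before the RefSeq start (GRCh38.p14), 5′ to 3′ on the strand of the gene. Capitals mark CArG boxes, MEF2 sites and EGR sites. The EGR1 window lies at chr5:138465229-138465478 on the plus strand, and the KLF2 window at chr19:16324576-16324825 on the plus strand. The KLF6 window lies at chr10:3785210-3785459 on the minus strand, and the IER5 window at chr1:181088450-181088699 on the plus strand.
EGR1: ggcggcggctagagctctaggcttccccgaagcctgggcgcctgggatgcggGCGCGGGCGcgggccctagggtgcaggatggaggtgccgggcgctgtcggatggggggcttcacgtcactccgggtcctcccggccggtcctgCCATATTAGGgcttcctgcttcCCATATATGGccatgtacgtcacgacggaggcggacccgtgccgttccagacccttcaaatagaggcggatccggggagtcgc
KLF2: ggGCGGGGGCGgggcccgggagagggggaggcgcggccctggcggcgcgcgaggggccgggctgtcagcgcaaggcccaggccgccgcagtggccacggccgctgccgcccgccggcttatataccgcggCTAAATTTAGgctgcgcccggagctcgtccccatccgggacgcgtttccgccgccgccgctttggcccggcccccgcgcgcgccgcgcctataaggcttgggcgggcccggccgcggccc
KLF6: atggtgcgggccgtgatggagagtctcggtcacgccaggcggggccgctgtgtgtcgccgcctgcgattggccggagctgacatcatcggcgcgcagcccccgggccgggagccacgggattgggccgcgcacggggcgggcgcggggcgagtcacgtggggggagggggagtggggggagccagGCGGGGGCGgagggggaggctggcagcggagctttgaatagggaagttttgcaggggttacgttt
IER5: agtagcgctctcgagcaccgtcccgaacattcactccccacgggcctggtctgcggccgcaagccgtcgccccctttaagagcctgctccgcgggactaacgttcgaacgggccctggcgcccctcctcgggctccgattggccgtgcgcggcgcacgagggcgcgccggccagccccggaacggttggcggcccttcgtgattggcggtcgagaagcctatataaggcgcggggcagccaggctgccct

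EGR1 was the only member with a CArG box, and it held 2 of them, at 105 to 96 and at 83 to 74 bases before the start. A CArG box was present in 1.16% of the 35116 promoter windows of the table. The MEF2 site was found in KLF2 alone among the members, at 120 to 111 bases before the start, and in 0.515% of all windows. The EGR site (GCGNGGGCG) was in the windows of EGR1, KLF2, KLF4 and KLF6, and in 8.41% of all windows. In KLF2, KLF4 and KLF6 it overlapped a GC box (GGGCGG), which was present in 5 members and in 42.6% of all windows. The core of the cyclic AMP response element (TGACG) was in EGR1, IER2, KLF4 and KLF13, and in 21.2% of all windows. None of the searched motifs was present in the windows of IER5 and KLF9. G and C made up 32.4% of the KLF9 window and 70.4% of that of IER5, so GC-rich motifs were less likely in KLF9. The whole cyclic AMP response element (TGACGTCA, 1.65% of all windows), the ATF4 composite site (TGATGNAAT, 0.888%), the antioxidant element (TGACNNNGC, 10.9%) and the heat shock element (0.441%) were in 0 of the 8 member windows. Both strands were searched, and a match is a description of these letters only. The windows of 8 members were in the table used here, and IER3 and KLF10 have none shown.

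**Figure D1:**
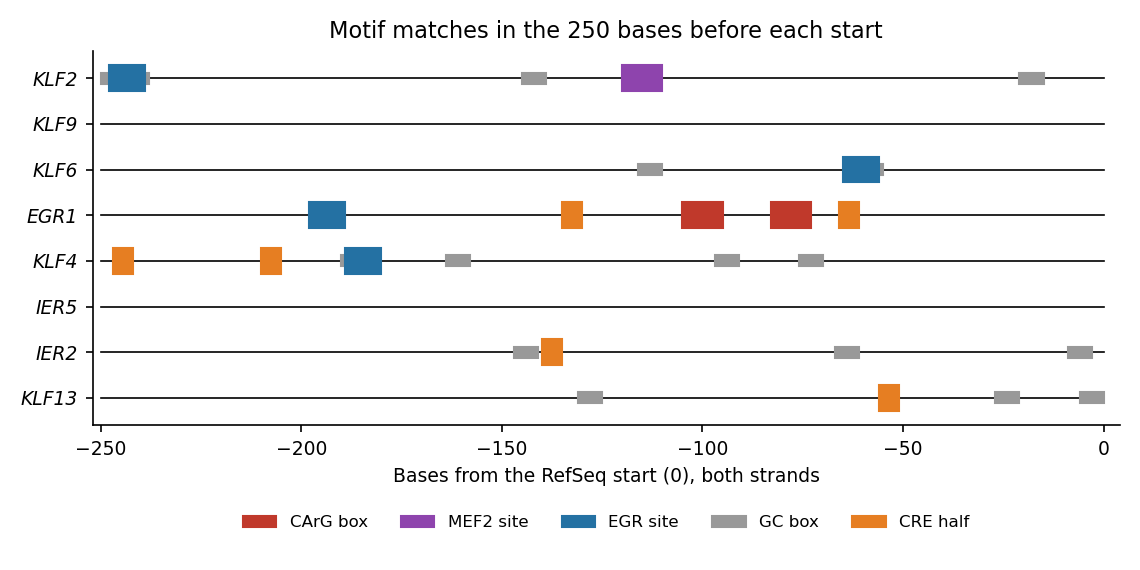
Motif matches in the 250 bases before the RefSeq start of 8 members (horizontal axis in bases from the start, 1 line per gene, coloured blocks for the motif types). The CArG boxes are on the EGR1 line and the MEF2 site is on the KLF2 line, while the lines of IER5 and KLF9 carry no block.

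The libraries held between 20567313 and 28459677 reads, and 100% of the CPM values (reads of a gene scaled to a common library total) were whole multiples of 1 read within a tolerance of 0.02. Every listed gene reached at least 1.5 CPM in at least 1 library. Plasma cell markers were abundant, with 10 of 12 symbols listed, the 12 including both JCHAIN and its older symbol IGJ. Their summed levels were 9750 to 9870 CPM in the DMSO libraries, 6780 to 6890 under CCF642 and 7710 in both CCF642-34 libraries. The defining T cell genes CD3D, CD3G, CD2 and CD8A and all 4 myeloid markers were not listed, and CD3E was at 2.09 to 3.19 CPM. Among 4 stromal genes only COL1A1 was listed, at 1.09 to 1.5 CPM in the DMSO libraries, 8.99 to 10.5 under CCF642 and 2.74 to 3.53 under CCF642-34, and its part in the results was not tested. In such bulk libraries, fewer cells that express a gene and less RNA of it per cell cannot be told apart. Nothing says whether the 2 libraries of a group came from separate cultures, so the p values rest only on the spread between these libraries, which may be technical. That spread was estimated largely from all genes together, with 42.9 prior and 3 residual degrees of freedom.

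Levels of different genes are compared here as CPM per kilobase of exon (GENCODE release 29 lengths). With DMSO the order was KLF13 at 60.4 ± 0.749, IER5 at 44.9 ± 1.04, KLF2 at 33.2 ± 3.31, KLF6 at 25.2 ± 0.154 and KLF10 at 4.98 ± 0.30 (mean ± SD, n = 2, as for all levels that follow). IER2 at 1.30 ± 0.183, KLF4 at 1.02 ± 0.00267, KLF9 at 0.766 ± 0.168 and EGR1 at 0.401 ± 0.0406 CPM per kilobase were low, and EGR1 lay at percentile 4.3 of the genes with a length. No libraries of neighbours in this order overlapped with DMSO, with KLF9 at 0.647 and 0.885 beside KLF4 at 1.02. With CCF642 KLF2 came first at 150 ± 19.8 CPM per kilobase (percentile 97.1), ahead of IER5 at 109 ± 6.04, KLF6 at 75.1 ± 1.31 and KLF13 at 31.8 ± 0.719. KLF10 at 3.37 ± 0.545 could not be ordered against KLF9 and KLF4, because its libraries spanned 2.99 to 3.76 CPM per kilobase while those of KLF9 lay at 3.16 to 3.32 and those of KLF4 at 3.12 to 3.15. IER2 at 2.31 ± 0.185 and EGR1 at 1.72 ± 0.0622 were the lowest with CCF642. With CCF642-34 KLF2 was again first at 133 ± 3.98 CPM per kilobase, but KLF6 at 61.5 ± 2.37 was above IER5 at 51.9 ± 3.25. KLF10 at 2.80 ± 0.23 and KLF9 at 2.72 ± 0.105 overlapped there, and EGR1 was lowest at 0.868 ± 0.103.

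**Figure D2:**
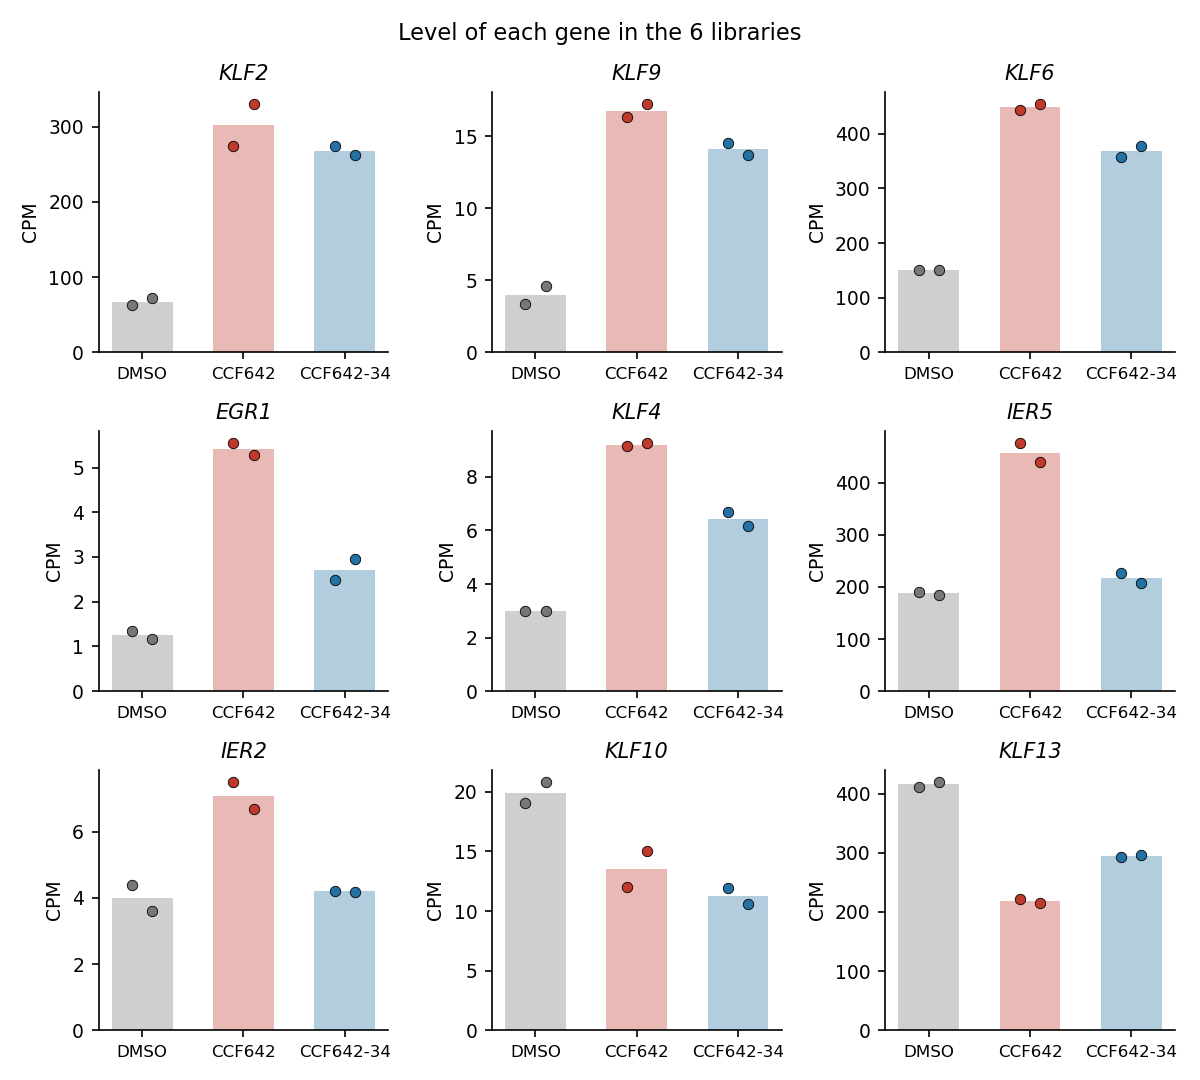
CPM of the 9 listed genes in each library (points) and the mean of each group of 2 libraries (bars, from 0). KLF2, KLF9, KLF6, EGR1, KLF4, IER5 and IER2 are higher with CCF642 than with DMSO in both libraries, the IER5 points of CCF642-34 lie near those of DMSO, and KLF10 and KLF13 are lower with both compounds.

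Against DMSO, CCF642 raised 7 of the 9 listed genes and lowered KLF10 and KLF13, at a limma adjusted p under 0.05. Among all 11048 genes 31.8% were called higher and 31.3% lower, so a call alone is common in these data. At least a 2-fold rise with an unadjusted p under 0.05 was met by 6 of the 9 members and by 4.5% of all genes, and by 4 members with a pseudocount of 4 in place of 1. The median log2 fold change was 1.46 over the 9 members and −0.01 over all genes. With CCF642-34, 6 members were higher, 2 lower and IER2 was neither, beside 29.7% of all genes higher and 27.9% lower. The 2-fold rise was met by KLF2, KLF6 and KLF9, 3 of 9 members, and by 2.59% of all genes. EGR1 and KLF4 also met it, giving 5 members, with a pseudocount of 0.1, edgeR, DESeq2 or limma-voom. The median was 0.77 over the members and 0.01 over all genes. Both comparisons used the same DMSO libraries, so they are not independent. The members were chosen with earlier results of these data known, and EGR1 reached 1.5 CPM only with the compounds. The counts and medians of the members are therefore descriptions. Log2 fold changes are on the scale of log2(CPM + 1) after TMM scaling, which understates the change of low genes, and are given with their 95% interval.

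KLF2 changed most. The DMSO libraries held 62.4 and 71.8 CPM, the CCF642 libraries 274 and 330 CPM, and the CCF642-34 libraries 274 and 263 CPM. All 4 treated libraries lay far above both DMSO libraries, while those of the compounds overlapped in CPM. After TMM scaling they did not overlap, with log2(CPM + 1) values of 8.16 and 8.44 for CCF642 and 8.12 and 8.06 for CCF642-34. The log2 fold change was 2.28 [2.17 to 2.40] with CCF642 (limma adjusted p = 1.3e-34) and 2.08 [1.96 to 2.19] with CCF642-34 (limma adjusted p = 1.19e-32). By the size of the change, whatever its direction, this placed KLF2 at rank 52 of 11048 genes with CCF642 and at rank 37 with CCF642-34. KLF9, a glucocorticoid- and thyroid hormone-responsive factor, had 77 and 98 reads (3.35 and 4.58 CPM) in the DMSO libraries. It reached 16.3 and 17.2 CPM under CCF642 and 14.5 and 13.7 CPM under CCF642-34, with no overlap between any of the groups. Its log2 fold change was 1.96 [1.70 to 2.23] with CCF642 and 1.69 [1.42 to 1.95] with CCF642-34 (limma adjusted p = 4.55e-18 and 1.43e-15). KLF6, a broadly expressed factor induced by injury and stress, started from a far higher level than KLF9, 25.2 against 0.766 CPM per kilobase. From 150 and 151 CPM in the DMSO libraries it rose to 443 and 454 CPM under CCF642 and 358 and 378 CPM under CCF642-34, again without overlap. Its log2 fold change was 1.70 [1.62 to 1.79] with CCF642 and 1.37 [1.29 to 1.46] with CCF642-34 (limma adjusted p = 2.87e-35 and 3.78e-31). KLF2, KLF9 and KLF6 rose at least 2-fold with both compounds.

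KLF4, known as a reprogramming factor and a cell cycle inhibitor in epithelia, was low in MM1.S cells. The DMSO libraries gave 3.00 and 2.99 CPM, those of CCF642 gave 9.14 and 9.25 CPM, and those of CCF642-34 gave 6.68 and 6.15 CPM. The groups were well apart, with the CCF642-34 libraries between the others. The log2 fold change of KLF4 was 1.46 [1.16 to 1.76] with CCF642 and 0.96 [0.66 to 1.26] with CCF642-34 (limma adjusted p = 8.11e-12 and 3.87e-07). The ratio of its mean CPM to that of DMSO was 3.07 with CCF642 and 2.14 with CCF642-34, and its log2 fold change with CCF642-34 was 1.16 with a pseudocount of 0.1 and 0.61 with 4.

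EGR1, the prototype of a gene driven by ERK and SRF, had the lowest level of the members in every group. It was represented by 31 and 25 reads with DMSO (1.35 and 1.17 CPM), 114 and 119 reads with CCF642 (5.54 and 5.27 CPM), and 71 and 82 reads with CCF642-34 (2.49 and 2.95 CPM). The 3 groups did not overlap, in the order DMSO, CCF642-34, CCF642. Every listed gene reached at least 1.5 CPM in at least 1 library, and EGR1 did so only with the compounds. Its listing therefore depended on the treated libraries, and its rise is a description. Its log2 fold change was 1.60 [1.22 to 1.97] with CCF642 and 0.77 [0.40 to 1.14] with CCF642-34 (limma adjusted p = 2.37e-10 and 0.000385), the widest intervals among the members. Because these values are close to the pseudocount, the log2 fold change of EGR1 with CCF642 ranged from 0.89, with a pseudocount of 4, to 2.24, with the DESeq2 Wald test, and that with CCF642-34 from 0.38 to 1.20. The ratio of mean CPM was 4.30 with CCF642 and 2.16 with CCF642-34. No time other than 6 h was sampled.

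IER5 and IER2 belong to 1 family of nuclear proteins, and IER5 is known as a cofactor of the heat shock factor HSF1. IER5 stood at 191 and 185 CPM in the DMSO libraries, at 475 and 439 CPM under CCF642 and at 227 and 208 CPM under CCF642-34. The CCF642 libraries stood clear above all others, and the CCF642-34 libraries lay just above DMSO. The log2 fold change of IER5 was 1.41 [1.32 to 1.50] with CCF642 and 0.30 [0.20 to 0.39] with CCF642-34 (limma adjusted p = 2.52e-30 and 3e-07). IER2 had 101 and 77 reads with DMSO (4.39 and 3.60 CPM), 154 and 151 reads with CCF642 (7.49 and 6.68 CPM), and 120 and 116 reads with CCF642-34 (4.22 and 4.17 CPM). In CPM both CCF642-34 libraries fell inside the range of DMSO, and both CCF642 libraries lay above it. After TMM scaling the CCF642-34 libraries, at log2(CPM + 1) values of 2.40 and 2.38, lay just above those of DMSO, at 2.37 and 2.14. The log2 fold change of IER2 was 0.81 [0.49 to 1.13] with CCF642 (limma adjusted p = 2.04e-05) and 0.13 [−0.19 to 0.45] with CCF642-34 (limma adjusted p = 0.494). A transcript annotated on the opposite strand overlaps the exons of IER2, and without a stated strand-marking step its reads cannot be told apart from those of IER2.

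KLF10 and KLF13 were lower with both compounds. KLF10, which is induced by transforming growth factor β in many cells, measured 19.1 and 20.8 CPM in the DMSO libraries, 12.0 and 15.0 CPM under CCF642 and 11.9 and 10.6 CPM under CCF642-34. None of the treated libraries reached the DMSO level, but the CCF642 libraries were spread. The log2 fold change of KLF10 was −0.41 [−0.64 to −0.18] with CCF642 and −0.69 [−0.93 to −0.46] with CCF642-34 (limma adjusted p = 0.00204 and 1.51e-06). Without CCF642 replicate 1, KLF10 was at −0.25 with CCF642 (limma adjusted p = 0.08), so that call rests on this library. KLF13, a factor known for its late induction of CCL5 in T cells, was the most abundant member with DMSO. From 412 and 419 CPM it fell to 222 and 215 CPM under CCF642 and 293 and 297 CPM under CCF642-34, and the 3 groups did not overlap. Its log2 fold change was −0.79 [−0.87 to −0.71] with CCF642 and −0.40 [−0.49 to −0.32] with CCF642-34 (limma adjusted p = 4.78e-22 and 8.71e-12).

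**Figure D3:**
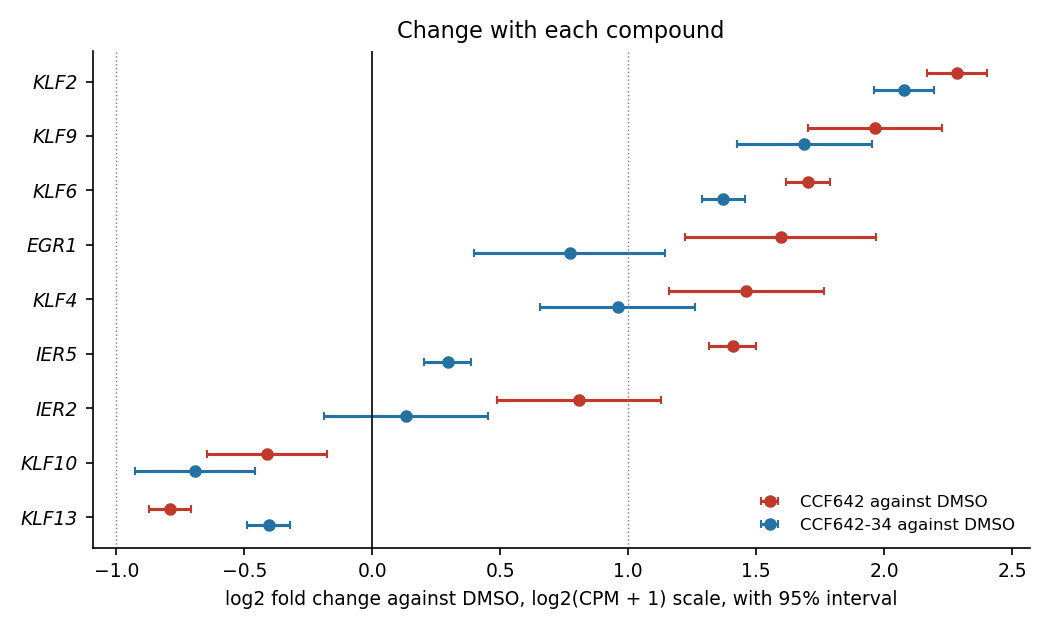
Log2 fold change against DMSO, on the log2(CPM + 1) scale, of each listed gene with CCF642 and with CCF642-34 (points, with 95% intervals, and dotted lines at a 2-fold change). KLF2, KLF9 and KLF6 lie to the right of the 2-fold line with both compounds, EGR1, KLF4 and IER5 do so with CCF642 but not with CCF642-34, and KLF10 and KLF13 lie to the left of 0.

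The compounds were then compared directly, as 1 pair at the same dose and time, with p values adjusted over all 11048 genes. Of the 9 members, 6 were lower with CCF642-34 than with CCF642, KLF13 was higher, and KLF9 and KLF10 were neither, while 17.4% of all genes were lower and 15.9% higher. The median difference, CCF642-34 minus CCF642, was −0.33 over the members and 0.01 over all genes on the log2 scale. IER5 differed most, at −1.11 [−1.21 to −1.02] (limma adjusted p = 6.54e-25, rank 26 of 11048 by size). In this fit it was the only member with a difference of at least 2-fold. EGR1 differed by −0.82 [−1.20 to −0.45] and IER2 by −0.68 (SE 0.159, limma adjusted p = 0.000446 and 0.000769). No CCF642-34 library of either gene reached those of CCF642. The EGR1 difference passed 2-fold with a pseudocount of 0.1 (−1.01), edgeR (−1.03), the DESeq2 Wald test (−1.04) and limma-voom (−1.03). KLF4 differed by −0.50 [−0.80 to −0.20] (limma adjusted p = 0.00798), but without CCF642-34 replicate 2 it was at −0.45 with a limma adjusted p = 0.0851. KLF13 was higher with CCF642-34 by 0.39 [0.30 to 0.47] (limma adjusted p = 1.99e-10), which is nearer to its DMSO level.

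KLF2, KLF6 and KLF9 had smaller log2 differences between the compounds than IER5, EGR1, IER2 and KLF4. KLF6 was lower with CCF642-34 by a log2 difference of −0.33 [−0.42 to −0.25] (limma adjusted p = 1.76e-08). KLF2 differed by −0.21 [−0.33 to −0.09] (limma adjusted p = 0.00464), with CCF642 replicate 1 and CCF642-34 replicate 1 both at 274 CPM before TMM scaling. The difference was −0.35 without CCF642 replicate 1 (limma adjusted p = 1.03e-07). The call was lost without CCF642 replicate 2 (−0.07, limma adjusted p = 0.373), without CCF642-34 replicate 2 (−0.17, limma adjusted p = 0.139) and with the DESeq2 Wald test (−0.22, DESeq2 adjusted p = 0.247). KLF9 was at −0.28 [−0.54 to −0.01] (limma adjusted p = 0.0991) and KLF10 at −0.28 [−0.52 to −0.05] (limma adjusted p = 0.056). For neither gene did the libraries of the compounds overlap. For KLF10, however, CCF642 replicate 1 at 12.0 CPM lay just above CCF642-34 replicate 1 at 11.9 CPM. The KLF10 difference was −0.44 without CCF642 replicate 1 (limma adjusted p = 0.00417) and −0.12 without CCF642 replicate 2 (limma adjusted p = 0.514). The interval of IER5 did not overlap those of KLF2, KLF6 and KLF9, although differences between genes were not tested.

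**Figure D4:**
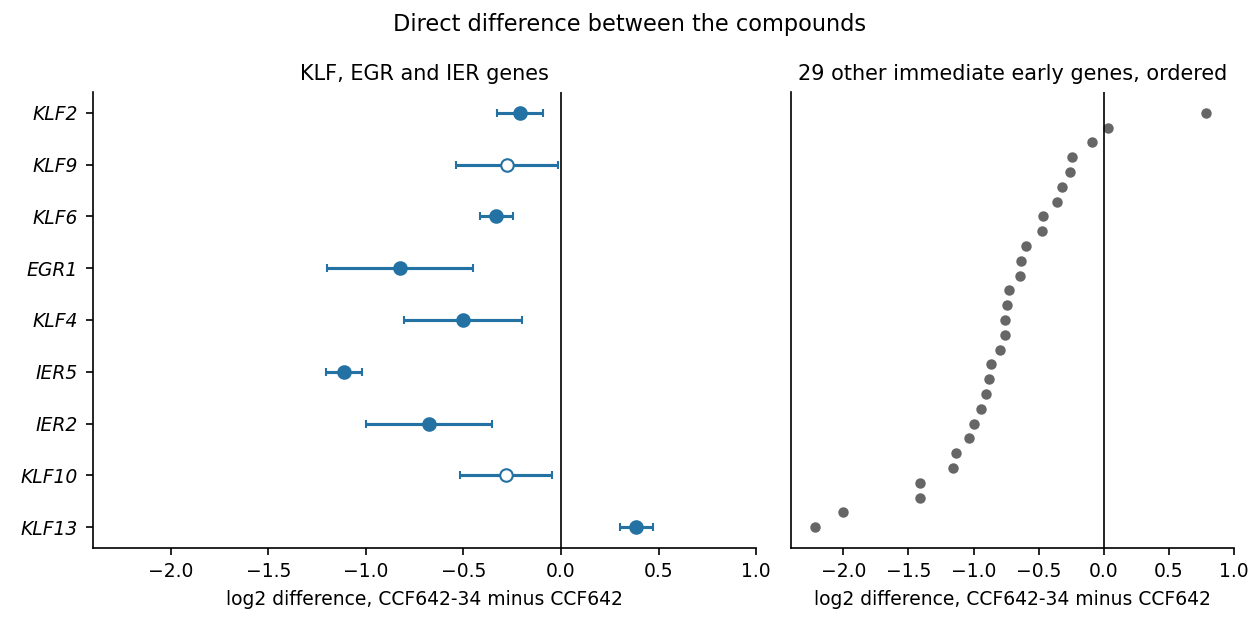
Log2 difference, CCF642-34 minus CCF642, of the 9 listed genes (left, with 95% intervals, open where the limma adjusted p was above 0.05) and of 29 other immediate early genes in order of size (right, 1 point per gene). IER5 lies furthest to the left of the members at −1.11, KLF13 is to the right of 0, and most of the other immediate early genes lie to the left of 0.

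Among the remaining KLF and SP factors, relatives that bind the same kind of GC-rich sequence, 12 of 20 were listed. Of these 12, CCF642 left 4 higher than DMSO, 3 lower and 5 neither, beside 31.8% of all genes higher and 31.3% lower. CCF642-34 left 6 higher, 3 lower and 3 neither, beside 29.7% of all genes higher and 27.9% lower. On the log2 scale the 12 genes had medians of 0.04 and 0.12, respectively. KLF5, a factor of proliferating epithelia, rose from 11.7 ± 0.399 CPM to 28.4 ± 0.342 under CCF642 and 14.9 ± 1.91 under CCF642-34. This gives log2 fold changes of 1.34 and 0.40 (limma adjusted p = 2.17e-15 and 0.00114) and a difference between the compounds of −0.94 (limma adjusted p = 9.85e-10). KLF3, a repressor in B cells and other blood cells, rose from 141 ± 0.678 CPM to 244 ± 7.32 and 193 ± 2.20 CPM, with log2 fold changes of 0.92 and 0.54 (limma adjusted p = 7.03e-23 and 2.61e-14). It too was lower with CCF642-34 than with CCF642, by a log2 difference of −0.38 (limma adjusted p = 4.23e-09). SP1 rose by 0.38 and 0.29 and SP2 by 0.45 and 0.35 with CCF642 and CCF642-34, respectively.

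SP4 moved the other way, from 29.5 ± 3.79 CPM to 14.4 ± 1.90 under CCF642 and 12.1 ± 0.15 under CCF642-34. Its log2 fold changes were −0.86 and −1.13 (limma adjusted p = 2.25e-09 and 1.81e-12). KLF16 was also lower, at −0.48 and −0.69, as was KLF15, at −0.37 and −0.40. KLF7 and KLF12 passed the test only with CCF642-34, at 0.20 and 0.24 (limma adjusted p = 0.00568 and 0.00113), and stood at 0.13 and 0.14 with CCF642 (limma adjusted p = 0.0727 and 0.0509). The differences between the compounds for these genes were 0.07 for KLF7 and 0.10 for KLF12 (limma adjusted p = 0.401 and 0.232). KLF8, KLF11 and SP3 passed with neither compound, with log2 fold changes between −0.11 for KLF8 with CCF642 and 0.03 for KLF11 with CCF642-34. In the direct comparison 0 of the 12 were higher, 2 lower and 10 neither, with a median of −0.07. Of all genes, 15.9% were higher and 17.4% lower there.

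Of the other EGR, NAB and IER genes, NAB1, NAB2 and IER5L were listed, and EGR2, EGR3 and EGR4 had no row. NAB1, the co-repressor that limits EGR1 activity, fell from 36.1 ± 0.437 CPM to 14.5 ± 1.52 under CCF642 and 13.7 ± 1.18 under CCF642-34. The log2 fold changes of NAB1 were −1.13 and −1.25 (limma adjusted p = 1.14e-13 and 6.78e-15), and its difference between the compounds was −0.12 (limma adjusted p = 0.403). NAB2, itself known as an EGR1 target, stood at 2.50 ± 0.829, 2.20 ± 0.0177 and 1.69 ± 0.204 CPM with DMSO, CCF642 and CCF642-34. Its log2 fold changes were −0.02 and −0.30 (limma adjusted p = 0.954 and 0.211). IER5L, the closest relative of IER5, was at 6.73 ± 0.201 CPM in the DMSO libraries, 9.58 ± 0.21 under CCF642 and 5.23 ± 0.188 under CCF642-34. It rose with CCF642 (0.57, limma adjusted p = 0.00047), stood at −0.23 with CCF642-34 (limma adjusted p = 0.154), and differed between the compounds by −0.81 (limma adjusted p = 1.23e-05).

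The genes of the signalling routes above them moved in both directions, as did genes in general. Of 22 symbols for SRF, its partners, ERK and ERK5 cascade kinases and MEF2 factors, 17 were listed. With CCF642, 7 were higher, 5 lower and 5 neither, beside 31.8% of all genes higher and 31.3% lower. With CCF642-34, 6 were higher, 7 lower and 4 neither, beside 29.7% of all genes higher and 27.9% lower. The medians of these 17 log2 fold changes were 0.03 and −0.06. The transcript of SRF itself fell from 94.9 ± 3.81 CPM to 44.4 ± 4.06 under CCF642 and 42.1 ± 2.67 under CCF642-34. The log2 fold changes of SRF were −0.95 and −1.06 (limma adjusted p = 1.29e-16 and 3.21e-18). MEF2D, a MEF2 factor, rose from 289 ± 10.4 CPM to 543 ± 5.03 and 437 ± 26.4 CPM, with log2 fold changes of 1.04 and 0.69 (limma adjusted p = 1.43e-26 and 3.19e-19). MEF2A rose by 0.72 and 0.71, and MAP3K3, a kinase at the head of the ERK5 cascade, fell by 0.61 and 0.45 on the log2 scale. RNA levels do not show the activity of these kinases and factors.

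Of 31 symbols for other immediate early genes, 29 were listed, and with CCF642 25 of them were higher, 3 lower and 1 neither. With CCF642-34 22 were higher, 3 lower and 4 neither. Over all genes, 31.8% were higher and 31.3% lower with CCF642, and 29.7% and 27.9% with CCF642-34. The medians of the 29 genes were 1.86 and 0.93, beside 1.46 and 0.77 for the KLF, EGR and IER genes. The largest rises were those of ATF3, a stress-induced factor, at 6.01 and 5.25, and NR4A3, an orphan nuclear receptor, at 5.15 and 2.93. MYC (−2.04 and −1.25) and the ERK phosphatase DUSP6 (−0.50 and −0.46) had the largest falls. Directly compared, 25 of the 29 were lower with CCF642-34 than with CCF642, beside 17.4% of all genes. Of the 29, 1 was higher, beside 15.9% of all genes, and 3 were neither, with a median of −0.76. This list and the others were written with earlier results of these data known, so their counts are descriptions.

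For each member, the genes with the most similar profile were found by Euclidean distance over the 6 libraries between log2(CPM + 1) values centred on DMSO. EGR1 was nearest to DNAJB4, a heat shock co-chaperone (distance 0.0867), and to the AP-1 gene FOSB (0.153). KLF4 was nearest to the circadian gene PER1 (0.113) and to BCL3 (0.131), and KLF6 to the ferritin light chain FTL (0.142) and to GZF1 (0.168). The nearest genes to KLF2 were CD55, which protects cells from complement (0.302), and SLC3A2, the heavy chain of several amino acid transporters (0.306). KLF9 was nearest to BCAT1 (0.252) and SRXN1 (0.296), IER5 to NFKBIZ (0.224) and KLF5 (0.235), and IER2 to WSB1 (0.187) and HEXIM1 (0.207). Among the genes that fell, KLF10 was nearest to NT5DC3 (0.0905) and AZGP1 (0.144), and KLF13 to PDCL3 (0.105) and FUT8 (0.111). Among the members themselves the closest profiles were those of EGR1 and KLF4, at a distance of 0.395, and those of KLF6 and KLF9, at 0.638. KLF2 and KLF13 were furthest apart, at 5.59. The log2(CPM + 1) scale compresses the changes of low genes, so the distances of low members such as EGR1 and KLF4 depend on the pseudocount. With a pseudocount of 0.1 in place of 1, the log2 fold changes of EGR1 and KLF4 with CCF642 were 2.15 and 1.72. Distances were taken with a pseudocount of 1 only.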

How the data were processed

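RNA of MM1.S cells was sequenced in 6 libraries of 3 groups, grouped by their treatment labels. The authors deposited CPM, in which the reads of each gene are divided by the size of their library, for 11048 symbols. The submitters' processing notes name STAR, hg19, edgeR (3.24.3) and limma (3.38.3), without their roles, and the counting tool and annotation are not given in the sources used here. A joint table of the 6 libraries repeats these values and was not used. The unit was read from the values, since no source states it.

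CPM values were scaled by TMM (edgeR 4.0.16), increased by a pseudocount of 1, converted to log2 and fitted with limma (3.58.1, R 4.3.3, intensity trend, 3 groups in 1 fit, no replicate block). The fit had 3 residual and 42.9 prior degrees of freedom, and Benjamini-Hochberg adjustment of the two-sided p values covered all 11048 genes in each of 3 comparisons. The fit was tested on simulated data. The other criterion, at least a 2-fold change with an unadjusted p under 0.05, is that of the study. Whole reads recovered from the CPM, 20567313 to 28459677 per library, were used only in alternatives (edgeR, DESeq2 1.42.0 and limma-voom). Also tried were scaling by library size alone or by the size factors of DESeq2, a pseudocount of 0.1 or 4, only genes with a mean CPM of at least 5, fits of 2 groups, a replicate block and fits without each library. Promoters came from RefSeq (GRCh38.p14) and gene lengths from GENCODE release 29, which held 11016 of the 11048 symbols. Gene names were matched by symbol, and no coordinates were converted between builds.

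The 10 genes and the gene lists were chosen with earlier results of these data known. Named are all 10 genes, every listed gene of the other KLF and SP factors and of the other EGR, NAB and IER genes, the 2 largest rises and falls with each compound in the other lists, and the 2 nearest profiles of each gene. A gene that this rule names is not reported here.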

Additional observations from a re-analysis of the deposited data

How the results depend on the processing

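Over 16 alternatives, 419 of 429 log2 fold changes of the members kept their direction and their side of the threshold, 5 gained a call, 5 lost one and 0 reversed. The count of members at least 2-fold higher with CCF642-34 was 5 in place of 3 with a pseudocount of 0.1, with edgeR's quasi-likelihood test, with the DESeq2 Wald test and with limma-voom, since EGR1 and KLF4 then passed 2-fold, and it was 3 to 4 when each library was left out. That with CCF642 was 4 in place of 6 with a pseudocount of 4 and 5 with a minimum mean CPM of 5. The count of members lower with CCF642 was 1 to 2 when each library was left out, with 1 without CCF642 replicate 1. The count lower with CCF642-34 than with CCF642 was 4 to 7 on leaving out libraries. The KLF10 difference between the compounds passed with DESeq2's size factors (−0.29, adjusted p = 0.0486), edgeR (−0.31, adjusted p = 0.045) and a replicate block (−0.28, adjusted p = 0.0444), and that of KLF9 with limma-voom (−0.30, adjusted p = 0.0425). The deviations of same-numbered libraries correlated at −0.0563 to 0.0467, so the numbers were not taken as pairs, and no other member's call changed with the replicate block. Scaling by library size alone moved the median of all genes to −0.13 with CCF642, −0.08 with CCF642-34 and 0.05 between them, and 34.8%, 38.6% and 61.8% of the calls were then higher, with no member changing its call. The minimum mean CPM of 5 removed EGR1. Depth limits EGR1, with 25 to 119 reads per library.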

Other observations

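A set of 10 genes known as textbook targets of KLF and EGR factors was looked at beside them, and 9 were listed. Of these 9, CCF642 left 4 higher than DMSO, 3 lower and 2 neither, beside 31.8% of all genes higher and 31.3% lower. CCF642-34 left 5 higher, 1 lower and 3 neither, beside 29.7% of all genes higher and 27.9% lower. On the log2 scale the 9 genes had medians of 0.07 and 0.11, respectively. CDKN1A, which encodes the cell cycle inhibitor p21 and is a known target of KLF4 and KLF6, among other factors, rose from 20.2 ± 0.89 CPM (mean ± SD, n = 2) to 129 ± 8.25 under CCF642 and 115 ± 3.41 under CCF642-34. Its log2 fold changes were 2.74 and 2.54 (limma adjusted p = 1.13e-36 and 5.13e-35), and its difference between the compounds was −0.20 (limma adjusted p = 0.0102). CCL5, a chemokine gene known as a KLF13 target in T cells, was higher by 0.72 and 0.52 on the log2 scale (limma adjusted p = 6.48e-11 and 2.42e-07).

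ITGB7, an integrin gene of plasma cell homing, was very abundant and fell from 12900 ± 132 CPM to 9290 ± 1.80 and 10800 ± 250 CPM, with log2 fold changes of −0.34 and −0.16 (limma adjusted p = 1.29e-12 and 3.96e-05). TXNRD2, a mitochondrial thioredoxin reductase, fell with CCF642 (−0.39, limma adjusted p = 0.000339) and stood at −0.15 with CCF642-34 (limma adjusted p = 0.155).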
